A study of Mus musculus with 36 samples.

Results

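The comparison set HP1α KO Tconv against HP1α KO naive CD4+ T cells. It asked which chromatin opened and which closed when CD4+ T cells that lack HP1α passed from the naive state through an allogeneic response. Members were chosen by genotype and cell labels alone. They were 3 libraries of HP1α KO Tconv and 3 of HP1α KO naive cells, 6 of the 36 libraries of the study, and 71509 of the 71512 intervals of the count table entered as peaks, the other 3 having no width. The assay was ATAC-seq. It uses a transposase that inserts adapters where DNA is free of nucleosomes, so more reads fall in a region the more open it is.

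In the KO mice the floxed Hp1a allele (gene symbol Cbx5) had been excised in the germline with a CMV-driven Cre, so HP1α was missing from all tissues of the donors and not from T cells alone. KO and WT donors were sex-matched littermates of mixed 129/Sv and C57BL/6 background. Naive cells were CD44-/low CD4+ splenocytes taken by a negative-selection kit for naive cells and profiled before any transfer. Tconv had started as the same kind of naive cell. They were injected without regulatory T cells (Treg) into lethally irradiated C57BL/6 hosts, together with marrow of both C57BL/6 and B6D2F1 mice. Transferred cells carrying the T cell receptor segment Vβ6 were sorted from the spleen weeks later. Vβ6 recognises a superantigen of the B6D2F1 graft, so the sort took allospecific cells. The naive cells had no Vβ6 sort. Whether their libraries were prepared together with those of Tconv was not given, so activation, transfer, sort and library preparation cannot be told apart here. How many animals stood behind each library was not given. The p-values rest on the spread between libraries, estimated over the 15 HP1α libraries of the fit, which include Tconv transferred with Treg.

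HP1α is a chromodomain protein that binds nucleosomes carrying the methyl marks of heterochromatin and helps to keep silent genes compact. Naive CD4+ T cells circulate through lymph nodes under transcription factors such as TCF1, LEF1 and FOXP1. After antigen contact, AP-1, NFAT, IRF4 and BATF open enhancers, and lineage factors such as T-bet and GATA3 steer cells to the Th1 and Th2 fates. Cells stimulated for long carry inhibitory receptors such as PD-1, LAG-3 and TIM-3.

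The following stretches were chosen to show regions that opened and regions that closed. Each line gives the forward strand of GRCm39 over 300 bases at the centre of a peak. The first 5 opened in Tconv and the last 3 closed, and those of Kcnk5, Akap17b and Fbln1 are among the peaks of smallest p. The others lie at listed lineage genes and were picked for holding a motif. Capitals mark the letters of AP-1 (TGANTCA), TCF/LEF (CTTTGAA), RUNX (TGTGGTT) and T-box (AGGTGTGA) motifs on either strand.
Kcnk5 intron peak, chr14:20224070-20224369: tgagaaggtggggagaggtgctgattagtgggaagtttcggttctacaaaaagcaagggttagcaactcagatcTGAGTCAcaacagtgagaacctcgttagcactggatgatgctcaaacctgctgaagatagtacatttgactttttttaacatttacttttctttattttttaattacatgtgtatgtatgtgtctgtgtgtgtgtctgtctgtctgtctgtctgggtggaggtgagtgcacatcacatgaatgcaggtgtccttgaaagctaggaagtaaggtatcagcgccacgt
Ifng intergenic peak, chr10:118271325-118271624: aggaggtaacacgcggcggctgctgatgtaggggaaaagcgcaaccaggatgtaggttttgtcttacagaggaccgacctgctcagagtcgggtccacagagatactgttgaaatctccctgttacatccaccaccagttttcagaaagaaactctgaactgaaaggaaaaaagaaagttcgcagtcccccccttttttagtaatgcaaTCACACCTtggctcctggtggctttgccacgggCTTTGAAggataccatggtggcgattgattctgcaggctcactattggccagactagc
Il10 intergenic peak, chr1:130938325-130938624: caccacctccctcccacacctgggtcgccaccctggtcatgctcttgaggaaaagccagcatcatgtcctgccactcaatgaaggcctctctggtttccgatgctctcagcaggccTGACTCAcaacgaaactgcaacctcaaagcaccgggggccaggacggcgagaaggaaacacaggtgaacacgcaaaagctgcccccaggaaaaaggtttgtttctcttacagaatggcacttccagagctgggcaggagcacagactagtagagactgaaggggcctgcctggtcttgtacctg
Il4 intron peak, chr11:53500435-53500734: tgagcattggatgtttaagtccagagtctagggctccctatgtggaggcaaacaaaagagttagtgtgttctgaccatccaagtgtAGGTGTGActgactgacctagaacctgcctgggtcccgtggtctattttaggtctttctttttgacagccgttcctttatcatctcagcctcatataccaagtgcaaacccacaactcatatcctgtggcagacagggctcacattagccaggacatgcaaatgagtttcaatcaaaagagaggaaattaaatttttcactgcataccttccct
Batf3 intron peak, chr1:190835015-190835314: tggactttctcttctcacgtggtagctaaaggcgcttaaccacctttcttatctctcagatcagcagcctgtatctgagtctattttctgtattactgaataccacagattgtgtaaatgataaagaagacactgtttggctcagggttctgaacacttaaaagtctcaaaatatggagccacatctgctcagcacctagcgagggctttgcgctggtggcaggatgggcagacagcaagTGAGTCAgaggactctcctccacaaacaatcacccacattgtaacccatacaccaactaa
Akap17b intron peak, chrX:35895910-35896209: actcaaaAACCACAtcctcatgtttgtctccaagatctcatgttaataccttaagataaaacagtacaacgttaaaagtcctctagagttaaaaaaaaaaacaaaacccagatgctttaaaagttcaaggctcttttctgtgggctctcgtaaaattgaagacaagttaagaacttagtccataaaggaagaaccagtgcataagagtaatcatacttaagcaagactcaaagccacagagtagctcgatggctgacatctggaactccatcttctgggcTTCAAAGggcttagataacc
Fbln1 intron peak, chr15:85117445-85117744: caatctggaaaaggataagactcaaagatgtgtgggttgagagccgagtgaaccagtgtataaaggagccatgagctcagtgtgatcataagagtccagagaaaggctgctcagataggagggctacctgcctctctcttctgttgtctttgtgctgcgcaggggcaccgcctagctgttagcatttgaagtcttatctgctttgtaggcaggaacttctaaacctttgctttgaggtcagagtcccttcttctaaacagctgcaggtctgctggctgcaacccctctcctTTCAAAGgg
Dapl1 intron peak, chr2:59318515-59318814: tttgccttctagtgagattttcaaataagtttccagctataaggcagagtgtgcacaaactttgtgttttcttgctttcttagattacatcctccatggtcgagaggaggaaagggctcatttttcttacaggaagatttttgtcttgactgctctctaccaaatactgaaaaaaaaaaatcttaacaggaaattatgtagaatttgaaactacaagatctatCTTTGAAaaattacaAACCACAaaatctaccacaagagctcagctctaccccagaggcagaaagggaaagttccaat

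Of the 71509 peaks, 16813 (23.5%) were higher in KO Tconv than in KO naive cells and 13617 (19.0%) were lower, 30430 (42.6%) in all. A peak was called where the Benjamini-Hochberg adjusted p of edgeR's quasi-likelihood test was under 0.05 and the log2 fold change over 1 in either direction. Peaks that rose started from little: their median went from 0.349 CPM in naive cells to 2.16 CPM in Tconv, where CPM, the read count scaled to library size, is relative to the reads in peaks after TMM scaling. Peaks that fell had a median of 4.27 CPM in naive cells and 1.26 CPM in Tconv. The gains had a median log2 fold change of 2.38 and the losses one of -1.77. Over 3 log2 units lay 5547 gains and 1147 losses. Of the higher peaks, 422 had at most 3 reads in each naive library, and with these set to the bound that 3 reads per library give, the median gain was again 2.38. The 3 Tconv and 3 naive libraries did not overlap at 97.6% of the higher and 91.3% of the lower peaks, beside 65.1% of all peaks. In bulk libraries, fewer cells with an open region and a less open region in every cell cannot be told apart.

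Reads in peaks were 67.6, 87.4 and 83.7 M (mega) in the KO naive libraries and 78.3, 72.7 and 23.6 M in KO Tconv. Replicates correlated at 0.979 to 0.992 in naive cells and 0.959 to 0.978 in Tconv over log2 CPM. Peaks over the start sites of the CD4+ T cell markers Cd3e, Cd3d, Cd3g, Cd4, Cd28, Cd5, Bcl11b, Lck and Themis were open in both groups, and 0 of these 9 were called, where 15% of all promoter peaks, those within 1 kb of a start site, were higher and 13.0% lower. The 3 peaks of the CD8 genes Cd8a and Cd8b1 fell, from summed levels of 36.9 to 39.9 CPM in naive cells to 4.85 to 9.72 CPM in Tconv. Of other cell types, the dendritic cell list had 8 of 9 peaks higher (20.4 to 26.3 CPM against 83.2 to 101 CPM summed) through Itgax, Zbtb46 and Clec9a, while Xcr1 and Siglech had no peak and the start site of Flt3 fell. The NK list had 5 of 5 higher, at 1.99 to 2.59 CPM against 15.7 to 17.6 CPM summed, with no peak at Ncr1. The B cell, myeloid, granulocyte and erythroid lists had 14, 17, 4 and 6 peaks, of which 5, 2, 1 and 1 were higher and 3, 6, 0 and 1 lower. Summed levels over naive and Tconv libraries were 40.7 to 50.9 and 38.5 to 48.8 CPM for B cells, 103.0 to 119.0 and 99.1 to 120.0 CPM for myeloid cells, 24.7 to 27.3 and 35.7 to 45.5 CPM for granulocytes, and 15.1 to 17.6 and 13.3 to 18.2 CPM for erythroid cells. Genes of these lists with no peak included Ms4a1, Cd79a, Csf1r, Lyz2, Elane and Klf1. The start sites of Mpo (log2 fold change 3.95), Cebpa (2.31), Pax5 (1.06) and Hbb-bt (3.36) were called higher. Those of Itgam (-1.16) and Gata1 (-1.72) were called lower. The part of such cells in the results was not tested.

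The opened peaks of smallest p, 1 per gene, included those at Kcnk5, Hrh4, Gas7, Ryk, Fanca, Uts2, Serpina3g, Il13 and Sdf4. The first, in an intron of the potassium channel gene Kcnk5, had 2.41, 2.04 and 1.75 CPM in naive libraries and 54.4, 60.0 and 48.6 CPM in Tconv. The peak was 26.7-fold higher (log2 fold change 4.74, SE 0.163, edgeR adjusted p = 1.61e-11). Each SE given in this text is the size of the log2 fold change over the square root of the test's F statistic. It was not estimated by the fit itself. An intronic peak of Gas7 was at 0.213, 0.0746 and 0.0909 CPM against 12.4, 13.6 and 10.7 CPM, a log2 fold change of 6.68, and of 7.27 without naive replicate 1. All 20 peaks nearest to Gas7 were called higher. The start site of Serpina3g, a serine protease inhibitor gene induced in activated T cells, rose from 0.295, 0.261 and 0.286 CPM to 24.4, 23.5 and 17.1 CPM. The Gas7 and Serpina3g regions were close to shut in naive cells. The Kcnk5 peak was not, as the median of all peaks in naive cells was 2.87 CPM. Each of these regions was clearly open in every Tconv library.

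The 10 closed peaks of smallest p lay at Akap17b, Fbln1, Ndrg3, Mtarc1, Gigyf2, Uso1, Tnrc6b, Slc4a4, Igf1r and Ptgfrn, and 9 of these 10 were in introns. The peak in Akap17b fell from 8.84, 9.54 and 9.49 CPM to 0.376, 0.47 and 0.61 CPM, 20.6-fold lower (log2 fold change -4.36, SE 0.222, edgeR adjusted p = 2.72e-11). A peak in Fbln1 went from 76.6, 74.2 and 73.0 CPM to 10.8, 9.38 and 12.9 CPM. An intronic peak of Slc4a4, a bicarbonate cotransporter gene, went from 18.3, 17.5 and 19.3 CPM to 0.817, 0.539 and 1.91 CPM. These regions were well open in naive cells. Groups that do not overlap were a condition for naming a peak in this way, in both directions.

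Genes of the naive state lost accessibility as a group. Of 138 peaks nearest to 17 of the 20 listed genes, 97 (70.3%) fell and 0 rose, beside 19.0% and 23.5% of all peaks. Their median log2 fold change was -1.65 beside -0.05 over all peaks. When peaks were given to the nearest protein-coding start site, 382 (66.4%) fell and 21 (3.65%) rose. Ccr7, the receptor that guides naive cells to the T cell zone, had 406.0, 343.0 and 340.0 CPM against 143.0, 127.0 and 133.0 CPM over its start site. The groups did not overlap, and the peak was 2.7-fold lower (log2 fold change -1.43, SE 0.156, edgeR adjusted p = 3.5e-07).

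Transcription factor genes of the naive state closed mostly outside their start sites. Foxp1, a factor of T cell quiescence, had the most closed peaks among protein-coding genes, 36 of 47, and its start site was 3.35-fold lower (138.0, 125.0 and 121.0 CPM against 33.8, 43.4 and 37.3 CPM). Bach2, a repressor of effector genes, had 21 of 26 peaks lower. Its start site was at 194.0, 165.0 and 171.0 CPM against 178.0, 183.0 and 146.0 CPM, overlapping ranges, while an intronic peak went from 7.39, 7.65 and 7.78 CPM to 1.5, 1.01 and 1.37 CPM (log2 fold change -2.57, SE 0.18). Satb1, encoding a chromatin organiser, had 7 of 10 peaks lower, led by an intergenic one at -2.20, and its start site at -0.96 missed the fold threshold. Tcf7, encoding TCF1, had a start site at 454.0, 398.0 and 393.0 CPM against 334.0, 277.0 and 283.0 CPM. There the groups did not overlap, but the log2 fold change was -0.48 and the peak was not called. Lef1 (-0.37), Klf2 (-0.46) and Il7r (-0.40) also stayed short of the threshold over their start sites. Dapl1, a gene of naive and memory T cells, had all 5 of its peaks lower, and Rapgef4 11 of 16, with its start site at 11.6, 10.5 and 9.49 CPM against 0.765, 0.566 and 2.9 CPM. The Rapgef4 value of -3.35 came to -3.97 without Tconv replicate 3, which was the highest of the 3.

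**Figure D1:**
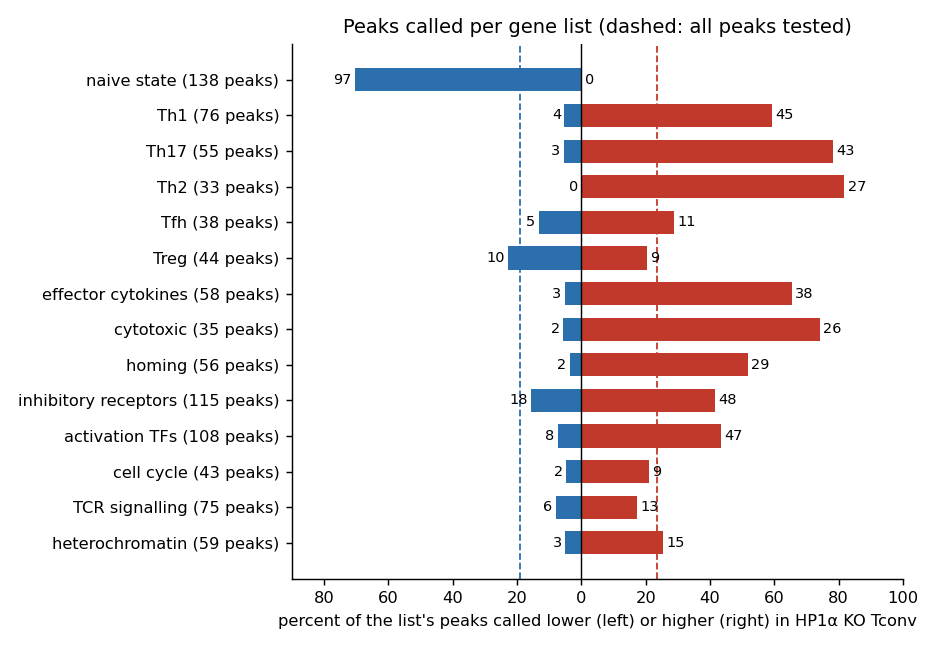
Share of the peaks of each gene list called lower (blue, left) or higher (red, right) in HP1α KO Tconv against KO naive cells, in percent, with the number of peaks beside each bar and the shares over all 71509 peaks (19.0% and 23.5%) as dashed lines. The naive state list stood on the left with 97 of 138 peaks lower, and the Th1, Th17, Th2, cytotoxic and effector cytokine lists on the right.

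Genes of the Th1 program opened. Of 76 peaks nearest to 15 of the 16 listed genes, 45 (59.2%) rose and 4 (5.26%) fell, beside 23.5% and 19.0% of all peaks. The median log2 fold change was 1.52, and 9 of 16 start sites were higher, beside 15% of all promoter peaks. Tbx21, encoding the Th1 master factor T-bet, was partly open in naive cells at 14.3, 16.7 and 17.6 CPM and reached 85.9, 97.8 and 79.1 CPM over its start site. That was 5.41-fold higher with no overlap (log2 fold change 2.44, SE 0.156, edgeR adjusted p = 6.39e-10). Ifng, its main target cytokine, went from 2.2, 2.72 and 3.12 CPM to 49.4, 58.3 and 42.8 CPM, 18.7-fold higher. The intergenic peak near Ifng whose sequence is printed rose from 0.328, 0.41 and 0.312 CPM to 13.6, 24.4 and 14.6 CPM. The chemokine receptor gene Cxcr3 rose 18.6-fold, the chemokine gene Ccl5 29.0-fold and the granule protein gene Nkg7 21.2-fold over their start sites. Stat4 (log2 fold change 0.48) and Runx3 (0.29) were already open over their start sites in naive cells and were not called there, whereas intronic peaks of each rose by 3.81 and 3.96 log2 units.

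Th17 genes opened as well, but 1 library weighed on their start sites. Of 55 peaks nearest to 8 of the 10 listed genes, 43 (78.2%) rose and 3 (5.45%) fell (median 2.99), beside 23.5% and 19.0% of all peaks. An intronic peak of Rora, a nuclear receptor gene of Th17 cells, went from 1.02, 0.423 and 0.714 CPM to 58.4, 47.6 and 35.5 CPM, 69.0-fold higher with no overlap (SE 0.269 log2, edgeR adjusted p = 3.17e-11). The start site of the cytokine gene Il17a was at 0.082, 0.0497 and 0.0519 CPM, at most 5 reads, against 8.9, 1.02 and 1.26 CPM. The libraries were apart, yet Tconv replicate 1 was far above the others, and the log2 fold change of 6.13 came to 4.22 without it. An intergenic peak of Il17a was more even, at 0.131, 0.149 and 0.0779 CPM against 11.2, 5.94 and 5.3 CPM. Il17f showed the same library, with 5.6 CPM in Tconv replicate 1 against 0.746 and 1.03 CPM, and its log2 fold change of 5.88, against at most 4 reads in a naive library, came to 4.18 without it. Il1r1 had 11 of 11 peaks higher, and Ccr6 6 of 6. Il22 and Ccl20 had no peak.

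Th2 genes gave 27 (81.8%) higher and 0 lower of 33 peaks (median 2.84), beside 23.5% and 19.0% of all peaks. With peaks given to the nearest protein-coding start site, the counts were 73 and 7 of 116. Il13 was among the 10 opened peaks of smallest p. Its start site went from 0.082, 0.087 and 0.117 CPM to 5.51, 4.01 and 4.46 CPM, 47.9-fold higher (log2 fold change 5.58, SE 0.296). Il4 rose from 0.59, 0.137 and 0.286 CPM to 6.52, 15.1 and 15.1 CPM at its start site (log2 fold change 5.20, and 5.86 without naive replicate 1), and its intronic peak from 0.689, 0.398 and 0.558 CPM to 7.42, 8.59 and 8.04 CPM. An intronic peak of Rad50, the gene that holds the locus control region of the Th2 cytokines, rose from 0.197, 0.323 and 0.299 CPM to 20.1, 22.1 and 15.1 CPM, 69.5-fold. Il1rl1, encoding the IL-33 receptor ST2, had 10 of 11 peaks higher. Gata3, the Th2 master factor that all CD4+ T cells need, was not called at its start site, with 183.0, 180.0 and 180.0 CPM against 170.0, 180.0 and 153.0 CPM, and 4 of its 6 peaks were higher. At Il5, Tconv replicate 1 (10.1 CPM) again stood above the others (1.91 and 1.6 CPM), and the log2 fold change of 4.96 came to 3.52 without it.

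The Tfh and Treg lists were divided. Of 38 Tfh peaks, 11 (28.9%) rose and 5 (13.2%) fell, and of 44 Treg peaks 9 (20.5%) rose and 10 (22.7%) fell. These shares were near the 23.5% and 19.0% of all peaks. With the nearest protein-coding start site the Treg counts were 39 (36.1%) higher and 25 (23.1%) lower of 108. By that rule the higher share was above that of all peaks. Il21, the cytokine of follicular helper cells, rose 11.7-fold at its start site (0.967, 0.933 and 0.467 CPM against 11.2, 7.03 and 9.15 CPM). Pou2af1, which encodes the cofactor OCA-B, fell 3.9-fold at its start site. Foxp3, the Treg master factor, was at 133.0, 121.0 and 119.0 CPM against 102.0, 97.1 and 78.2 CPM over its start site, apart but with a log2 fold change of -0.42 that was not called. A second promoter peak of Foxp3 fell from 5.34, 6.39 and 7.3 CPM to 3.01, 2.8 and 3.09 CPM (log2 fold change -1.12, edgeR adjusted p = 0.000112). That call was lost with libraries scaled by size alone (-0.98), with loess offsets on mean abundance (-0.95) and without Tconv replicate 2 (-1.0). All 6 peaks of Gpr83 fell. Il2ra, encoding the IL-2 receptor chain CD25, was not called at its start site but rose 13.0-fold in an intron, from 0.918, 0.846 and 0.779 CPM to 12.2, 11.6 and 7.74 CPM.

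Genes of inhibitory receptors and exhaustion gained 48 (41.7%) and lost 18 (15.7%) of 115 peaks (median 0.64). Over all peaks 23.5% rose and 19.0% fell, so the share lost was near that of all peaks. Havcr2, encoding TIM-3, opened at all 7 of its peaks, with 1.3, 1.18 and 1.25 CPM against 16.2, 21.6 and 16.2 CPM at the start site, 14.7-fold higher and no overlap (edgeR adjusted p = 4.86e-11). Il10, an immunosuppressive cytokine, had 14 of 15 peaks higher and rose by 5.05 log2 units at its start site, from 1.31, 0.696 and 0.74 CPM to 25.0, 33.5 and 29.8 CPM. The Pdcd1 start site, the gene of PD-1, was at 28.2, 27.9 and 29.6 CPM against 54.9, 54.1 and 48.3 CPM. Its log2 fold change of 0.88 missed the threshold, though it was 1.04 with libraries scaled by size alone, while an intronic peak rose 7.69-fold. Lag3 rose 2.28-fold at its start site, and Tigit 8.44-fold in an intron. Tox, a factor of exhausted cells, went the other way. Its start site fell 2.32-fold (135.0, 114.0 and 115.0 CPM against 48.8, 57.4 and 50.4 CPM), and 13 of its 44 peaks fell while 7 rose.

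Effector cytokine genes had 38 of 58 peaks (65.5%) higher and 3 (5.17%) lower (median 2.24), beside 23.5% and 19.0% of all peaks. Il2, the growth factor of T cells, rose 4.92-fold at its start site, from 5.95, 5.38 and 5.56 CPM to 31.6, 27.8 and 21.8 CPM. The single peaks of Tnf and Lta were not called. A closed peak nearest to Il3, at 5.25, 8.15 and 7.05 CPM against 0.7, 0.622 and 1.22 CPM, ran against the group. In the cytotoxic list 26 of 35 peaks (74.3%) rose and 2 (5.71%) fell (median 3.08). Granzyme genes Gzma, Gzmb, Gzmc and Gzmk had all of their 3, 3, 1 and 4 peaks higher, whereas both peaks of Prf1, encoding perforin, fell. The homing list, with chemokine receptors and integrins of tissue T cells, had 29 of 56 peaks (51.8%) higher and 2 (3.57%) lower (median 1.04). The higher ones included 6 of 7 at Itgb1 and both at Itga1.

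Transcription factor genes of activation rose mostly away from start sites. Of 108 peaks 47 (43.5%) rose and 8 (7.41%) fell (median 0.82), beside 23.5% and 19.0% of all peaks. Of 25 start sites those of Batf3 and Bhlhe40 were higher, beside 15% of all promoter peaks. Batf, the AP-1 partner of IRF4, had 7 of 8 peaks higher, and its start site was not among them (74.0, 67.6 and 68.4 CPM against 92.6, 92.7 and 73.4 CPM, overlapping). One of its intronic peaks went from 0.443, 0.435 and 0.935 CPM to 8.72, 8.83 and 7.85 CPM, 13.9-fold higher. Bhlhe40, a factor of cytokine production, was at 83.1, 70.2 and 67.3 CPM against 462.0, 404.0 and 336.0 CPM, 5.46-fold higher. Zeb2 had 12 of 18 and Hif1a 8 of 10 peaks higher. Nr4a1, an early gene of T cell receptor signalling, lost an intronic peak 6.5-fold (29.5, 25.4 and 25.7 CPM against 4.41, 3.16 and 5.53 CPM) with its start site not called. Jun, the AP-1 subunit gene, was at 319.0, 276.0 and 268.0 CPM against 194.0, 175.0 and 162.0 CPM, a log2 fold change of -0.70 that was not called.

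**Figure D2:**
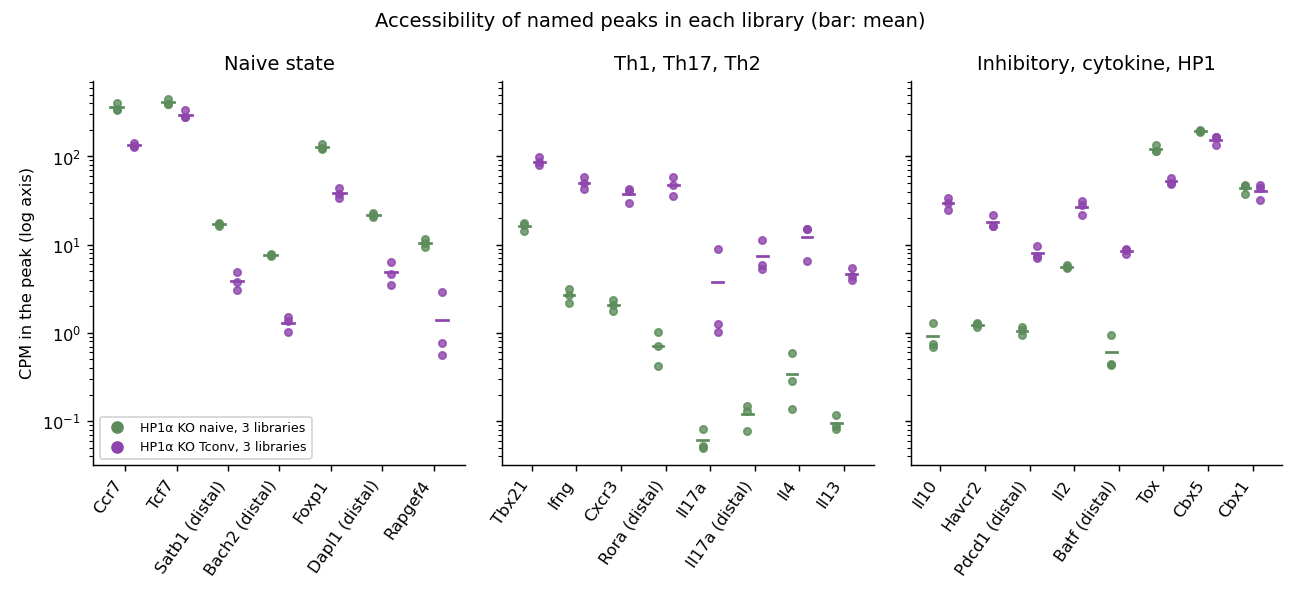
CPM (log axis) of 23 peaks in each HP1α KO library, 3 naive (green) and 3 Tconv (purple), with bars at the means; names without a note are peaks over the start site or another annotated promoter, "distal" marks other peaks. Ccr7 fell from 340.0 to 406.0 CPM to 127.0 to 143.0 CPM, Il13 rose from 0.082 to 0.117 CPM to 4.01 to 5.51 CPM, and the 3 Tconv libraries spread widely at the Il17a start site (1.02 to 8.9 CPM).

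None of the 20 start sites of HP1 and other heterochromatin genes was called, beside 15% higher and 13.0% lower among all promoter peaks. Cbx5, which encodes HP1α itself and is disrupted in both groups, had 201.0, 194.0 and 188.0 CPM in naive libraries and 165.0, 166.0 and 135.0 CPM in Tconv over its start site. These were apart, but with a log2 fold change of -0.32 (SE 0.143) the peak was not called. Cbx3, the HP1γ gene, was at 195.0, 208.0 and 203.0 CPM against 168.0, 173.0 and 147.0 CPM (-0.31). Cbx1, the HP1β gene, was at 37.5, 46.9 and 46.0 CPM against 43.6, 46.9 and 31.8 CPM, overlapping ranges with a log2 fold change of -0.07 that was 0.08 when libraries were scaled by size alone. Of 59 peaks of the list 15 (25.4%) rose and 3 (5.08%) fell (median 0.13), beside 23.5% and 19.0% of all peaks, so the share that rose was near that over all peaks. Lmnb1, a lamin gene, held 8 of the 15 gains. The one of smallest p, in an intron, was at 1.66, 1.03 and 1.19 CPM against 35.6, 32.1 and 25.9 CPM.

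Cell cycle genes had 9 of 43 peaks (20.9%) higher and 2 (4.65%) lower. T cell receptor signalling genes had 13 of 75 (17.3%) higher and 6 (8.0%) lower. Neither share of higher peaks exceeded the 23.5% of all peaks. In both lists 0 start sites were called, of 20 and 14, beside the same 15% and 13.0% of all promoter peaks. For receptor signalling genes the direction depended on how peaks were given to genes, with 26 higher and 35 lower of 179 by the nearest protein-coding start site. The CD4+ T cell markers likewise went from 13 higher and 4 lower of 57 to 22 and 54 of 176. Broader lists that the study used gave these counts. The Th1 signature had 112 of 336 peaks (33.3%) higher and 35 (10.4%) lower (median 0.24), and the exhaustion signature 213 of 458 (46.5%) higher and 41 (8.95%) lower (median 0.93). The 54 genes that the study chose on KO against WT Tconv in the presence of Treg had 67 of 241 peaks (27.8%) higher and 35 (14.5%) lower (median 0.08), near the shares of 23.5% and 19.0% over all peaks. Of these genes 52 were matched and 49 had a peak.

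Called peaks were found less often at promoters than peaks as a whole. Promoter peaks, within 1 kb of a start site, made up 34.0% of all peaks but 21.6% of the higher and 23.2% of the lower ones. Of 24327 promoter peaks 3639 (15%) rose and 3155 (13.0%) fell, against 28.5% and 23.1% in introns and 27.6% and 21.0% between genes. Of 2623 protein-coding genes with an opened distal peak and a promoter peak, 1770 (67.5%) had no promoter peak called in either direction. For closed distal peaks these were 1150 of 1830 genes (62.8%). Called peaks had median widths of 590 bases where they rose and 630 bases where they fell, against 930 bases for peaks not called.

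Some genes had many peaks called in 1 direction and 0 in the other. Atxn1 had 23 of 26 peaks higher and 0 lower, Trerf1 18 of 19, Ptpn13 17 of 17 and Niban1 13 of 13. Ptpn13 encodes a tyrosine phosphatase. On the closing side, Rere had 23 of 31 lower, Tspan9 13 of 13 and Lypd6b 11 of 11. Sgms1, a sphingomyelin synthase gene, was mixed, with 18 lower and 9 higher of 47. Among 13204 protein-coding genes with a peak, 4206 had at least 1 higher, 2851 at least 1 lower and 900 both, and 7047 had neither. Along chromosomes, medians of the autosomes lay between -0.13 and 0.04, and that of chromosome X was -0.31. The X held 1.79 to 1.80% of reads in naive libraries and 1.51 to 1.63% in Tconv, and 16.3% of its 1522 peaks rose while 20.1% fell.

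The motif letters differed between peaks that opened and peaks that closed. AP-1 letters stood in the central 300 bases of 22.9% of the higher peaks and 9.09% of the lower ones, beside 13.0% of all peaks. TCF/LEF letters went the other way, in 7.08% of the higher and 13.1% of the lower peaks, beside 7.92% of all. The closed peaks at Akap17b, Fbln1 and Dapl1 printed above hold them, and so does the opened one near Ifng. RUNX letters were in 18.1% of higher and 13.3% of lower peaks (12.9% of all), and T-box letters in 3.59% and 1.37% (1.98% of all). NF-kB letters were found in 1.62% of the higher and 0.338% of the lower peaks (0.808% of all), and the composite of a bZIP and an IRF motif (AICE), present in the Il10 peak above, in 0.642% and 0.118% (0.267% of all). The core of the CTCF motif was rare in both, at 2.98% and 3.61% against 12.5% of peaks not called. By class, AP-1 letters were in 24.0% of higher and 9.53% of lower distal peaks and in 19.2% and 7.64% of promoter peaks. A match of letters is a description and no sign that the factor was bound.

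**Figure D3:**
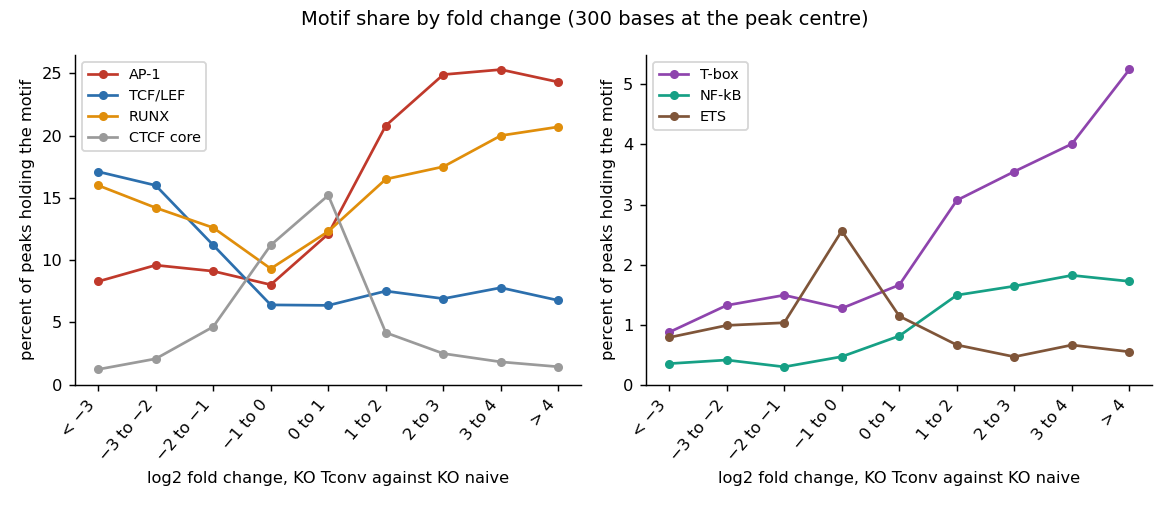
Percent of peaks whose central 300 bases hold each motif, by log2 fold change between KO Tconv and KO naive cells in 9 bins from under -3 to over 4. AP-1 rose from 8.02% in peaks between -1 and 0 to 25.3% between 3 and 4, TCF/LEF reached 17.1% in peaks under -3, and the CTCF core was highest at 15.2% between 0 and 1.

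The T cell receptor β locus on chromosome 6 changed on either side of Trbv19, the gene segment that encodes Vβ6. From Trbv1 to Trbv19, 13 of 30 peaks rose and 2 fell, with a median log2 fold change of 0.80 and summed levels of 202.0 to 236.0 CPM in naive libraries and 288.0 to 335.0 CPM in Tconv. From there to Trbd1, 9 of 14 peaks fell and 0 rose, with a median of -1.58 and 70.0 to 75.1 CPM against 25.4 to 32.6 CPM. Between Trbd1 and Trbv31, 0 of 4 peaks were called. Over all peaks tested, 23.5% rose and 19.0% fell. Recombination of a V segment to a D segment deletes the DNA between them, and Tconv were sorted for Vβ6 while naive cells were not. The part of the sort in these values was not tested. The peak that spans Trbv18 and Trbv19 was higher by 1.18 log2 units. The list of 22 Trbv segments, of which 17 had a peak, does not hold every segment of the locus, and of its 20 peaks 4 rose and 5 fell. In WT cells the medians of the 3 stretches were 0.83, -1.56 and -0.57.

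**Figure D4:**
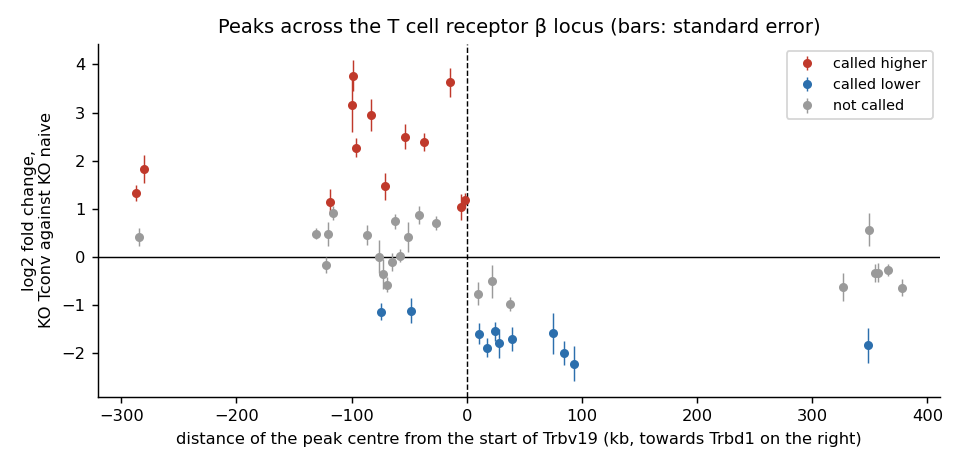
Log2 fold change of the 48 peaks from Trbv1 to Trbv31 against the distance of their centre from the start of Trbv19, in kb. Bars show the SE derived from the F statistic, and Trbd1 lies to the right. Peaks to the left of Trbv19 were higher in 13 of 30 cases, and between Trbv19 and Trbd1 13 of 14 peaks lay below 0.

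The WT comparison from the same fit shows which of these changes were also called when HP1α was present. WT Tconv had 30372 called peaks (42.5%), with 17824 gains (24.9%) and 12548 losses (17.5%). Of the KO gains 15537 were also called in WT, 92.4% of the KO and 87.2% of the WT gains. Of the losses 11467 were shared, 84.2% of the KO and 91.4% of the WT losses, and 3 peaks were called in opposite directions. The WT losses numbered 7484 without WT Tconv replicate 1. Peaks called in KO alone had values near the threshold in WT, with a median log2 fold change of 1.39 in KO and 0.95 in WT for 1276 gains and of -1.25 and -0.84 for 2150 losses. Across all peaks the log2 fold changes correlated at 0.964, a description over peaks, which are not replicates.

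The difference itself was tested as an interaction of genotype and activation, and 0 peaks (0.0%) were called by edgeR. At an unadjusted p under 0.05 there were 1286 (1.8% of all peaks), 408 with a larger and 878 with a smaller value in KO. That share is below what evenly spread p-values would give. The smallest edgeR adjusted p was 0.692. Without WT Tconv replicate 1 the number at an unadjusted p under 0.05 was 6349. DESeq2 called 1, a promoter peak of Trappc12, a gene of a vesicle tethering complex. Its KO libraries had 4.8, 7.1 and 6.89 CPM in naive cells and 29.4, 21.5 and 20.1 CPM in Tconv, and its WT libraries 38.0, 6.42 and 32.1 CPM and 4.58, 7.82 and 7.84 CPM. The WT groups overlapped through naive replicate 2. The precision was limited, since the median SE of the difference was 0.59 log2 units over the KO gains and 0.48 over the losses. The 95% interval of the difference lay within 1 log2 unit of 0 for 22.9% of the gains and 34.1% of the losses. The WT Tconv libraries had 74.4, 19.7 and 6.2 M reads in peaks. At the Ifng start site the KO value was 4.22 and the WT value 4.47 (difference -0.24, 95% interval -0.87 to 0.38). At the Tbx21 start site they were 2.44 and 2.69 (-0.26, -0.69 to 0.18), and at Havcr2 3.88 and 3.61 (0.27, -0.35 to 0.89). A difference was not shown at these genes, and intervals of this width leave room for small ones.

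**Figure D5:**
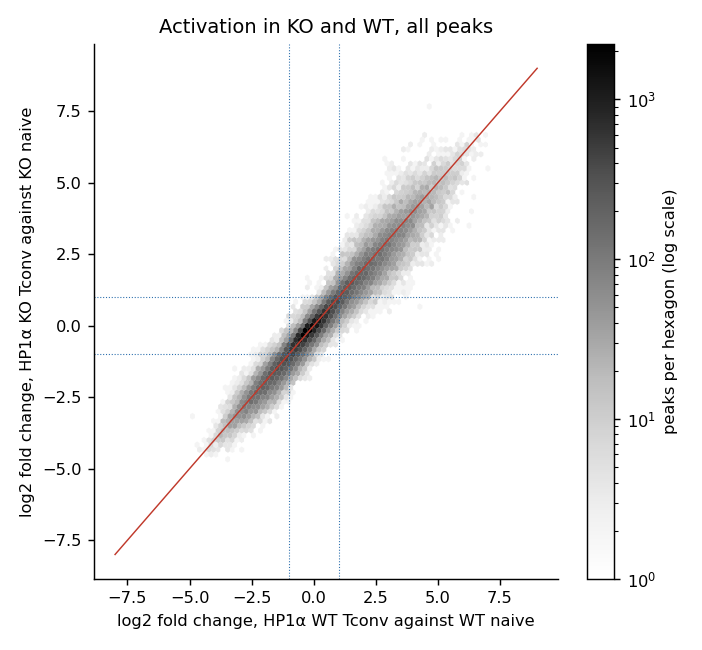
Log2 fold change of Tconv against naive cells in HP1α KO (vertical) and HP1α WT (horizontal) for all 71509 peaks, shaded by the number of peaks per hexagon (log scale), with the line of equal change in red and the threshold of 1 dotted. The cloud follows the line, with a correlation of 0.964.

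The wild-type littermates of the HP1γ line, a separate set of libraries fitted apart, gave 17513 higher (24.5%) and 15713 lower (22.0%) of 71508 peaks. Of the KO gains 15065 (89.6% of the KO and 86.0% of the HP1γ line's gains) and of the losses 12828 (94.2% and 81.6%) were called there too, and 3 in the opposite direction. Called in the same direction in HP1α KO, HP1α WT and HP1γ WT were 14349 gains and 11094 losses.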

How the data were processed

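ATAC-seq was run on 36 libraries, of which 3 HP1α KO Tconv and 3 HP1α KO naive libraries made up the comparison. The authors trimmed reads with Trim Galore 0.6.7, aligned them to GRCm39 with BWA-MEM2, removed duplicates, called peaks per sample with HMMRATAC, merged them with BEDTools and counted reads with featureCounts 2.0.3. The deposited counts are whole read counts per merged peak. Of 71512 intervals in the table, 3 of no width were left out and 71509 were used. The deposited peak list was used for positions alone, and its constant score column was not used. Every value column was matched to a sample by its name, and 0 columns were left unmatched.

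The counts were fitted in edgeR 4.0.16 (R 4.3.3) by the quasi-likelihood test with TMM scaling, over the 15 HP1α libraries kept by the study. These include Tconv transferred with Treg. Contrasts were set for KO, WT and their interaction, with Benjamini-Hochberg adjustment over all peaks. The 18 libraries of the HP1γ line were fitted separately. A call asked for an adjusted p under 0.05 and a log2 fold change over 1 in size. limma 3.58.1 and DESeq2 1.42.0 served as alternatives, with other scalings, filters, designs and leave-one-out fits. The fit was tested on simulated counts.

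Peaks were given to the gene with the nearest start site in the GENCODE annotation of GRCm39, and a peak over a gene's start site was followed apart from that. The named peaks were the 10 of smallest p in each direction with groups apart, 1 per protein-coding gene, the start site peak and the called peak of smallest p of listed genes, the HP1 genes, and the 5 peaks of smallest interaction p in each direction. Peaks on chromosome 18 or over annotated UTRs were left out of the printed sequences. A few items that meet these rules are not reported here. The comparison and the gene lists were chosen with earlier results of these data known. Reads in peaks ranged from 23.6 to 87.4 M (mega) in the 6 libraries.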

Additional observations from a re-analysis of the deposited data

How the results depend on the processing

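Leaving out each of the 6 KO libraries in turn gave 28834 to 30432 called peaks in KO (15716 to 17999 higher, 11469 to 14641 lower), and 14 other settings gave 28227 to 31930, the lowest with the legacy quasi-likelihood of edgeR, chosen after seeing the data. The share of higher among called peaks lay between 51.9% and 61.0% over these settings. At an adjusted p under 0.01 and a log2 fold change over 2, 15208 peaks remained above the thresholds (9932 higher, 5276 lower). Scaling by library size alone moved the median of all peaks from -0.05 to 0.10. WT losses ranged from 7484 to 13414 over leave-one-out fits. The interaction gave 1 call with DESeq2 and 0 to 2 in leave-one-out fits (2 without KO naive replicate 2 and 2 without WT naive replicate 2). In other settings 761 to 12545 peaks had an unadjusted p under 0.05, the most with limma voom and quality weights. Replicate numbers did not pair the libraries, with correlations of same-numbered deviations of -0.122 to 0.065 in KO, and the replicate block gave 31109 KO calls (17618 higher) and 0 interaction calls. Of 2314 recomputed fold changes of named peaks, 2287 kept direction and call, 10 lost the call, 4 gained it and 13 changed sign. Those that changed sign were the Bach2 and Cbx1 start sites, both uncalled throughout. Bach2 was at 0.11 with library size alone, 0.14 with loess offsets on mean abundance and 0.06 with limma. It was at 0.04 with all 18 libraries and 0.02 with autosomal peaks. Over leave-one-out fits Bach2 lay at -0.10 to 0.10, above 0 without KO naive replicate 1 and, at 0.04, without KO Tconv replicate 3. Cbx1 was at 0.08 with library size alone and 0.11 with loess offsets on mean abundance. It was at 0.04 with all 18 libraries, 0.05 with depth as a covariate and 0.01 with autosomal peaks. Over leave-one-out fits Cbx1 lay at -0.11 to 0.06, above 0 without KO Tconv replicate 3. The cause was not tested. When peaks were given to genes by other rules, 49 of 104 list counts stayed within 1.5 times. The lower depth of KO Tconv replicate 3 and of 2 WT Tconv libraries limits the precision of low peaks and of the interaction.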

Other observations

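Of the 10 peaks with the smallest interaction p, 5 in each direction, 3 lay on chromosome 12, at 25305821 to 25307320, 26195241 to 26195640 and 28749601 to 28751610. The differences between KO and WT were -1.28, 6.28 and 4.03 log2 units at Gm59567, Gm47750 and Trappc12. In the Gm47750 peak the WT naive libraries had 2.73, 0.186 and 3.81 CPM, and the value was 6.95 and called without WT naive replicate 2, which was also the low library at Trappc12. The donors were of mixed 129/Sv and C57BL/6 background, and the part of differences between animals in these values was not tested.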
